A study of Mus musculus with 12 samples.

Results

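Primary granules, also called azurophil granules, are the first storage granules that a myeloid precursor builds. They are filled at the promyelocyte stage with a peroxidase and a set of serine proteases that later kill ingested microbes, and in acute myeloid leukemia their genes mark how far along the granulocyte and monocyte path a blast has come. The proteases are made as inactive precursors, are trimmed by a lysosomal enzyme and are stored on the proteoglycan serglycin, while promoters of these genes are textbook targets of C/EBP factors, PU.1 and MYB.

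The genes described are *Mpo*, *Elane*, *Prtn3*, *Ctsg*, *Ms4a3*, *Cst7*, *Srgn*, *Prss57*, *Nkg7* and *Plac8*, matched by symbol. They were chosen with earlier results of these data known. All 10 of 10 had a row, and each had 1 row, among 25263 symbols. Only the first 4 and *Prss57* encode the peroxidase or serine proteases of the granule; *Srgn* encodes the core protein on which they are stored. *Ms4a3*, *Plac8*, *Cst7* and *Nkg7* are expressed in the same precursors, and *Nkg7*, *Cst7* and *Srgn* are also well known from natural killer and cytotoxic T cells.

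RNA came from leukemic bone marrow cells of adult mice in which the fusion oncogene MLL-AF9 (MA9 in the labels) drives the leukemia in all groups. There were 4 groups of 3 libraries. WT cells (strain C57BL/6, wild type Hoxa cluster) received a control GFP retrovirus (WT-GFP) or a Cre retrovirus (WT-Cre). Cells with a floxed Hoxa cluster (strain C57BL/6J) received the control virus (Hoxa-flox) or Cre, which deletes the cluster (Hoxa-del). All were kept overnight in SCF, GM-CSF, IL-6 and IL-3 before infection, and cells with high GFP were sorted. The labels do not say how many leukemias, clones or mice lie behind the libraries, so the spread behind each p-value is that of these libraries and may be technical. Levels are in FPKM, a unit that divides the fragments of a gene by its transcript length and by the library's depth, so that levels of different genes can be compared. Changes are differences in log2(FPKM + 1), which understate the change of low genes. Tests used 1 limma fit over 13169 symbols, all 10 genes among them; p-values were adjusted by Benjamini-Hochberg over all of these, and a gene was called where the adjusted p was under 0.05.

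Estimated depth ran from 4.0 M fragments (WT-Cre 2) to 18.8 M (WT-GFP 3). *Hoxa9*, a gene of the deleted cluster, checks the label: it was lower in Hoxa-del (83.5 to 119 FPKM) than with the control virus (217 to 257; log2 change -1.17, adjusted p = 0.0422, limma) but not at 0. The 6 libraries of floxed cells fell into 2 sets that do not follow the virus. The proliferation marker *Mki67* read 14.9 to 17.8 FPKM in 3 of them (Hoxa-del 2 with Hoxa-flox 1 and 2) and 84.6 to 93.2 in the other 3 (Hoxa-flox 3 with Hoxa-del 1 and 3). WT libraries read 65.1 to 78.2. Results in floxed cells are therefore also given within the low-*Mki67* and the high-*Mki67* set. In bulk RNA, fewer cells of a type and less RNA per cell cannot be told apart.

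The promoters of the peroxidase and of the 3 main proteases are shown because these genes share a stage of expression and differed in level between the libraries of floxed cells. Each sequence starts 250 bases before the RefSeq transcription start (GRCm38.p6, 5′ to 3′ on the gene's strand). It ends before the first base of this window that GENCODE M21 annotates as exon. Exons outside the window were not considered. The window of *Prtn3* lies inside its GENCODE gene, which begins at base 79874476. Capitals mark the PU.1/ETS core GAGGAA. The intervals are chr11:87793534-87793580 (plus strand) for *Mpo*, chr10:79886062-79886246 (plus) for *Elane*, chr10:79879417-79879613 (plus) for *Prtn3* and chr14:56102575-56102824 (minus) for *Ctsg*.

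Mpo: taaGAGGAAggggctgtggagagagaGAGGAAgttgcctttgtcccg

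Elane: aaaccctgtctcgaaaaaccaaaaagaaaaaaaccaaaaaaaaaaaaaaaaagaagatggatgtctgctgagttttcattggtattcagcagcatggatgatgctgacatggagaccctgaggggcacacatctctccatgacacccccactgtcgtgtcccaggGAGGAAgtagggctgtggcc

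Prtn3: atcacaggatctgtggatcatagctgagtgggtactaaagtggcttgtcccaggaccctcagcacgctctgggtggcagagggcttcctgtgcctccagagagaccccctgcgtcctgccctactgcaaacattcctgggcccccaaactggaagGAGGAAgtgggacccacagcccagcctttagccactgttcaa

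Ctsg: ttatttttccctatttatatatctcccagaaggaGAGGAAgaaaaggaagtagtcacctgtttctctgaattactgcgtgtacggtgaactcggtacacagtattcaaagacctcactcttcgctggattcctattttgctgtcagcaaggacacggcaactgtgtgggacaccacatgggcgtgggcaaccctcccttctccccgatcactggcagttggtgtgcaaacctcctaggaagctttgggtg

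In *Elane* the core lay 85 bases before the start, in *Prtn3* 95, in *Ctsg* 216, and in *Mpo* there were 2 cores, 247 and 224 bases before it. RefSeq promoters were matched for 9 of the 10 genes (11 promoters, since *Srgn* and *Plac8* have 2 each). Searched on both strands over the 250 bases before the start, GAGGAA was in 5 of these 11, against 23.3% of 32851 promoters. The RUNX core TGTGGT was in 5 of 11 (14.0% of all), the C/EBP core GCAAT in 3 of 11 (23.1%), the C/EBP dyad TTGCNNAA in 1 of 11 (9.6%) and the MYB core AACNG in 9 of 11 (74.2%). The fifth promoter with GAGGAA was that of *Plac8*. *Ms4a3* held none of the 5 motifs in this window. These matches describe letters, not bound sites.

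*Prtn3* and *Elane* are neighbours. In GENCODE M21 (GRCm38) *Prtn3* spans 79874476 to 79883174 of chromosome 10 and *Elane* begins 3.1 kb further on (79886247 to 79888215), both on the plus strand. *Prss57* lies 83.5 kb from *Prtn3* on the same chromosome (79781474 to 79790961, minus strand), and *Srgn* lies far away on it (62493833 to 62527451, minus). *Mpo* (chromosome 11, 87793581 to 87804413, plus) contains the antisense RNA *Gm11505*. *Ctsg* (chromosome 14, 56099881 to 56102574, minus), *Ms4a3* (chromosome 19, 11629496 to 11640851, minus), *Cst7* (chromosome 2, 150570415 to 150578944, plus), *Nkg7* (chromosome 7, 43437073 to 43438249, plus) and *Plac8* (chromosome 5, 100553725 to 100572245, minus) are the other loci. Those of *Prtn3* and *Prss57* overlap *Plppr3* and *Fstl3* on the other strand. How the counting used strand is not given in the sources used here, so reads of such partners could not be told apart.

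In WT cells under the control virus, *Elane*, the neutrophil elastase, was the highest of the 10 at 2301 ± 270 FPKM (SD, n = 3) and ranked 13th to 18th among all symbols. *Prtn3*, proteinase 3, followed at 1445 ± 173, then *Srgn* (830 ± 22.7) and *Ctsg*, cathepsin G (791 ± 40.8), whose libraries overlapped. *Plac8*, a small cysteine-rich protein of myeloid precursors, averaged 593 ± 32.2, *Mpo*, the myeloperoxidase, 292 ± 29.8, and *Ms4a3*, a tetraspan membrane protein of granulocyte and monocyte precursors, 233 ± 4.05. The lowest were *Cst7*, the cysteine protease inhibitor cystatin F, at 64.2 ± 3.34, *Prss57*, a serine protease of the granule, at 18.1 ± 2.07, and *Nkg7*, a membrane protein of cytotoxic granules, at 7.99 ± 0.629. Apart from *Srgn* and *Ctsg*, neighbours in this order did not overlap between libraries. The order kept its shape in WT-Cre except that *Ms4a3* stood above *Mpo*. In the floxed cells most neighbours overlapped, and *Mpo* took the lowest place but 2 in Hoxa-flox.

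**Figure D1:**
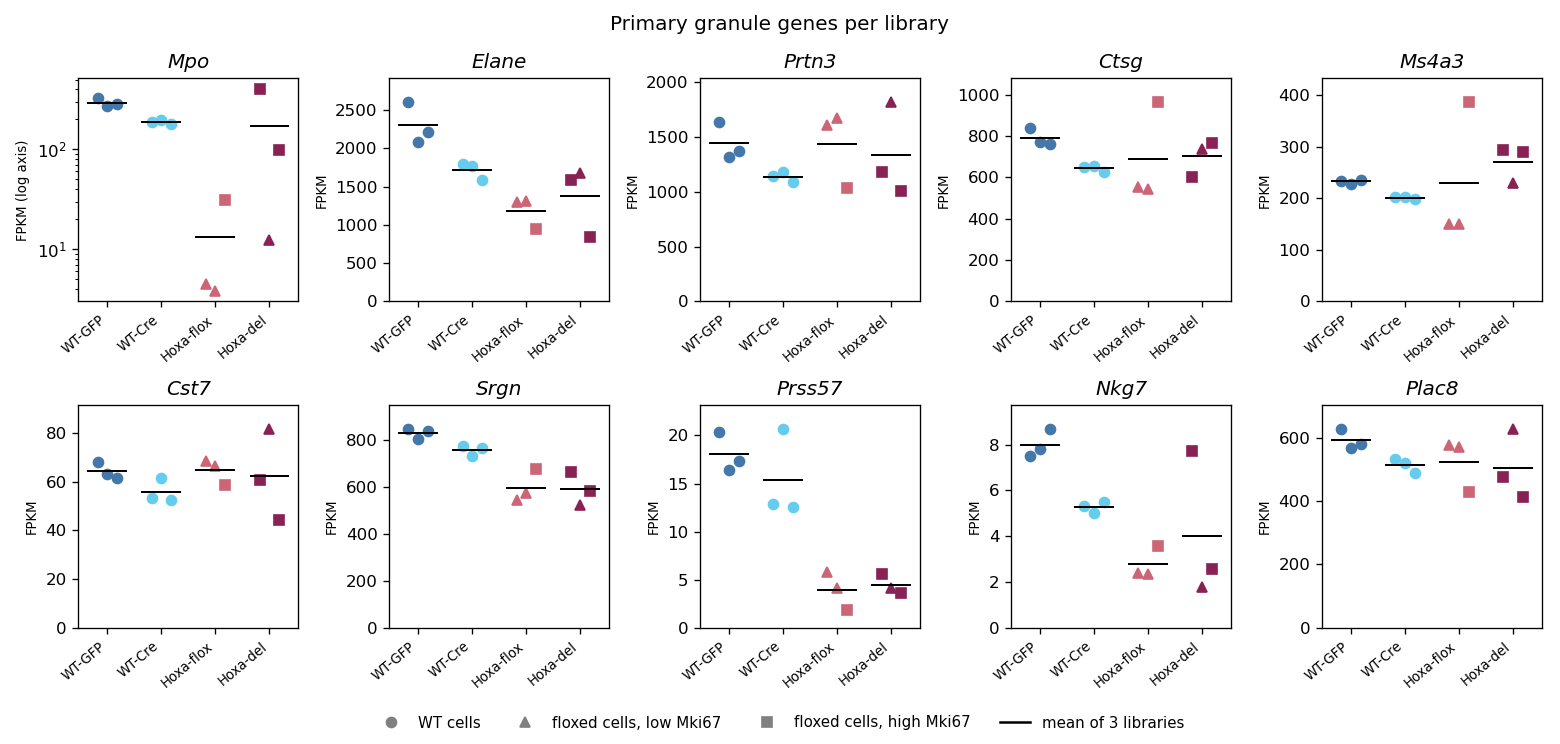
FPKM of the 10 genes (vertical axes from 0; log axis for Mpo) in each library of the 4 groups, with the arithmetic mean of 3 libraries as a bar; triangles and squares are floxed libraries with low and high Mki67. WT-Cre points lie below WT-GFP points for 8 genes, and Mpo has its lowest point at 3.80 (Hoxa-flox 2) and its highest at 407 (Hoxa-del 1).

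The first comparison asked what the Cre virus did in WT cells, which have no loxP sites. All 10 genes averaged lower with Cre, 8 of them with no overlap between the groups, but none passed the test over all genes. *Mpo* read 326, 269 and 282 FPKM with the control virus and 186, 195 and 180 with Cre. Every Cre library lay below every control library, and the Cre mean was 63.9% of the control mean (log2 change -0.64, 95% confidence interval -2.88 to 1.6). *Nkg7* read 7.49, 7.79 and 8.70 against 5.32, 5.03 and 5.5 FPKM, again without overlap and at 66.1% of the control mean.

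Among the proteases the differences were smaller and ran the same way. *Elane* read 2603, 2082 and 2219 FPKM with the control virus and 1800, 1766 and 1589 with Cre (74.7% of the control mean; log2 change -0.42, SE 0.28). *Prtn3* read 1642, 1319 and 1375 against 1145, 1182 and 1086 (78.7%). *Ctsg* read 838, 773 and 762 against 651, 657 and 625 (81.4%). In all 3 proteases the groups were separate. *Prss57* read 20.4, 16.4 and 17.4 against 12.9, 20.7 and 12.6: the groups overlapped through WT-Cre 2, the shallowest library.

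The storage proteoglycan and the remaining genes differed least. *Srgn* stood at 805 to 848 FPKM with the control virus and at 732 to 774 with Cre (91.3% of the control mean). *Plac8* stood at 567 to 629 and 488 to 533 (86.7%), and *Ms4a3* at 228 to 236 and 198 to 203 (86.3%), all 3 without overlap. *Cst7* read 61.5 to 68.0 and 52.5 to 61.6, where the groups overlapped through WT-Cre 2.

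With limma 0 of the 10 genes passed (adjusted p = 1 each), against 0.0152% of all symbols. At an unadjusted p under 0.05 the share was 0 of the 10 and 2.37% of all symbols. Of all symbols 57.2% changed below 0, against 10 of 10 here, and 16.3% were lower without overlap, against 8 of 10 here. Since the 10 genes were chosen with earlier results of these data known, these shares are a description and not an independent test. The median change of the 10 was -0.27 and that of all symbols -0.03. The spread in this fit was pooled with the floxed cells, where these genes vary more. In a fit of the WT libraries alone *Elane* had an SE of 0.12 and *Mpo* of 0.08, and still 0 of 10 passed (adjusted p = 0.210 to 0.526, limma).

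**Figure D2:**
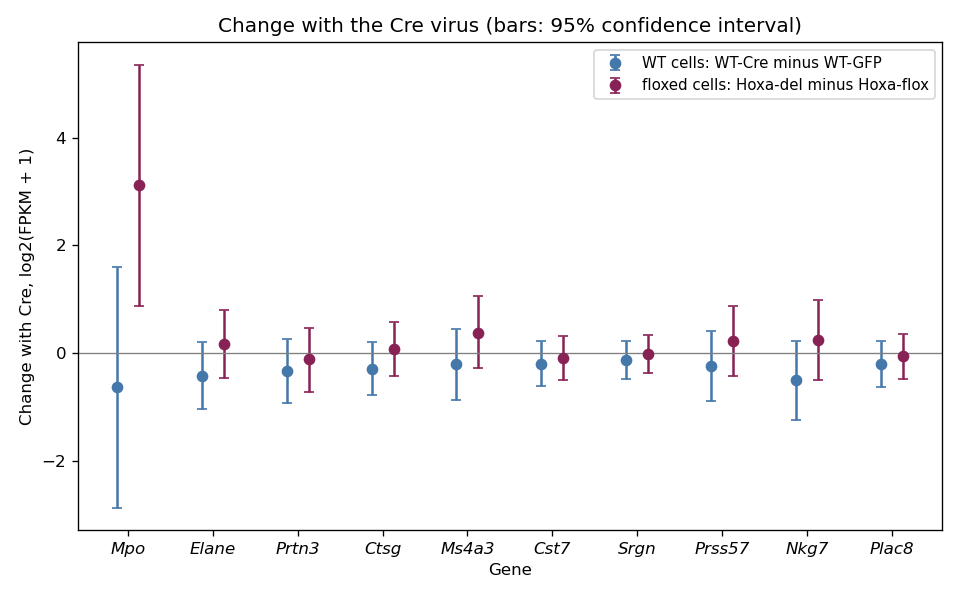
Change with the Cre virus in log2(FPKM + 1) for each gene (points) with its 95% confidence interval from the limma fit (bars), in WT cells and in floxed cells. All WT points lie below 0, all WT intervals include 0, and Mpo in the floxed cells stands at 3.12.

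In the floxed cells, where Cre deletes the Hoxa cluster, *Mpo* averaged higher with Cre, with a wide spread. It read 4.42 and 3.80 FPKM in Hoxa-flox 1 and 2, the lowest of the 12 libraries, and 31.1 in Hoxa-flox 3. With Cre it read 407, 12.5 and 98.2. In rank among all symbols this is from 9531st in Hoxa-flox 2 to 157th in Hoxa-del 1, the highest *Mpo* of the 12 libraries. The groups overlapped in 1 of 9 library pairs, since Hoxa-del 2 lay below Hoxa-flox 3.

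The log2 change of *Mpo* was 3.12 (SE 1.02, unadjusted p = 0.0108) and was not called (adjusted p = 0.729, limma). It was higher with Cre inside both sets: by 1.40 in the low-*Mki67* set (1 Hoxa-del against 2 Hoxa-flox libraries) and by 2.65 in the high-*Mki67* set (2 against 1). The sets themselves differed, with all 3 high-*Mki67* libraries above all 3 low-*Mki67* ones. Without Hoxa-del 1 the change was 1.96 (adjusted p = 1, limma), and without Hoxa-del 2 it was 4.42 and passed (adjusted p = 0.0415, limma). Hoxa-del 2 is the only Cre library of the low-*Mki67* set, so that fit compares mainly libraries of different sets. With the set as a term the change was 2.02 (adjusted p = 0.212, limma). Over all alternatives that gave a value the adjusted p ran from 0.00178, with array weights, to 1.

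No protease was called. *Elane* read 1293, 1318 and 943 FPKM in Hoxa-flox and 1590, 1684 and 841 in Hoxa-del, with overlap. *Prtn3* read 1613, 1674 and 1033 against 1178, 1817 and 1005, and here the lower values in both groups were those of the high-*Mki67* libraries. *Ctsg* read 556, 542 and 964 against 602, 739 and 769. *Ctsg* changed in opposite directions within the sets (0.43 and -0.50). *Prss57* read 5.77, 4.10 and 1.83 against 5.58, 4.14 and 3.65. Within the low-*Mki67* and the high-*Mki67* set *Elane* changed by 0.37 and 0.29 and *Prss57* by -0.19 and 0.97. *Prtn3* changed by 0.15 and 0.07 within the sets, against -0.12 in the main fit.

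*Ms4a3* read 151, 151 and 386 FPKM in Hoxa-flox and 293, 230 and 290 in Hoxa-del. Its change was 0.61 within the low-*Mki67* and -0.40 within the high-*Mki67* set. *Nkg7* read 2.37, 2.36 and 3.58 against 7.70, 1.77 and 2.57, so that only Hoxa-del 1 reached the WT range. At this depth the lowest *Nkg7* value, in Hoxa-del 2, corresponds to about 10 fragments. *Srgn* (543 to 676 against 525 to 664), *Plac8* (427 to 577 against 414 to 627) and *Cst7* (58.8 to 68.6 against 44.1 to 81.8) overlapped between the groups, and their intervals for the log2 change were -0.38 to 0.34, -0.48 to 0.36 and -0.51 to 0.32. Within the low-*Mki67* and the high-*Mki67* set *Nkg7* changed by -0.28 and 0.28 and *Cst7* by 0.27 and -0.18. *Srgn* changed by -0.09 and -0.12 and *Plac8* by 0.13 and 0.06.

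Between the 2 sets of floxed libraries, whatever the virus, *Mpo*, *Ms4a3*, *Srgn* and *Nkg7* were higher in every high-*Mki67* library than in every low-*Mki67* library. *Prtn3*, *Cst7* and *Plac8* were lower in every one, and *Elane*, *Ctsg* and *Prss57* overlapped. The sets were read from the same libraries, so no test is given. The share of all symbols that differed in this way between the sets was not counted. Whether the split is particular to the primary granule genes was therefore not tested.

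For the floxed cells limma called 0 of the 10 genes, against 0.0304% of all symbols, and 1 of 10 (*Mpo*) had an unadjusted p under 0.05, against 6.27%. No gene of the 10 had separate groups, where 4.14% of all symbols were lower and 2.25% higher without overlap. Changes below 0 were found for 4 of 10 genes, against 58.4% of all symbols; the median change of the 10 was 0.12 and that of all symbols -0.06.

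The change with Cre was then compared between the genotypes, which asks whether the floxed cells responded as WT cells did. For all 10 genes the floxed change was the higher one, so 0 of 10 differences lay below 0, against 52.9% of all symbols. The WT changes, all below 0, are subtracted here, so this count is not separate from the WT result. *Prtn3*, *Cst7*, *Srgn* and *Plac8* also changed below 0 in the floxed cells (-0.12, -0.09, -0.02 and -0.06), only less than in WT cells. None passed (adjusted p = 1 each, limma; 0.00759% of all symbols called). The difference was 3.75 for *Mpo* (95% confidence interval 0.58 to 6.92, unadjusted p = 0.0244), 0.76 for *Nkg7* (-0.29 to 1.80), 0.60 for *Ms4a3* (-0.34 to 1.53) and 0.58 for *Elane* (-0.31 to 1.47). For the other 6 it lay between 0.11 and 0.48. Without Hoxa-del 1 the *Mpo* difference was 2.59 and that of *Nkg7* 0.27.

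Under the control virus *Mpo*, *Prss57*, *Nkg7* and *Elane* were lower in the floxed than in the WT leukemia. *Mpo* differed most: it went from 292 ± 29.8 FPKM (WT-GFP) to 13.1 ± 15.6 (Hoxa-flox) (log2 change -4.96, SE 1.02, adjusted p = 0.00410, limma). *Prss57* was lower at 3.90 ± 1.98 against 18.1 ± 2.07 (-2.04, SE 0.30, adjusted p = 0.000456, limma). *Nkg7* was lower at 2.77 ± 0.701 against 7.99 ± 0.629 (-1.27, SE 0.34, adjusted p = 0.0166, limma). *Elane* was lower at 1185 ± 210 against 2301 ± 270 (-0.97, SE 0.28, adjusted p = 0.0274, limma).

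*Srgn* just missed the threshold at 597 ± 69.9 against 830 ± 22.7 (-0.48, adjusted p = 0.0502, limma), although the groups were separate. *Prtn3*, the neighbour of *Elane*, averaged 1440 ± 353 in Hoxa-flox and 1445 ± 173 in WT-GFP (-0.03, interval -0.63 to 0.56), and *Cst7* 64.7 ± 5.17 and 64.2 ± 3.34 (0.01, -0.41 to 0.43). *Ctsg*, *Ms4a3* and *Plac8* changed by -0.25, -0.17 and -0.19 and did not pass. In all 4 of 10 genes were called lower, against 13.5% of all symbols, and 5 of 10 were lower without overlap, against 23.3%. The calls of *Mpo* and *Prss57* held in each of 13 alternatives. That of *Elane* was lost without any 1 of the 6 libraries (adjusted p = 0.0508 to 0.0953, limma) and without the filter on low values (0.0920). That of *Nkg7* was lost without WT-GFP 3, Hoxa-flox 1 or Hoxa-flox 2 (0.0549 to 0.0603). Without Hoxa-flox 3, *Ctsg*, *Ms4a3* and *Srgn* also passed as lower (-0.53, -0.62 and -0.57).

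With Cre in both genotypes 1 of the 10 genes, *Prss57*, was called lower in Hoxa-del than in WT-Cre, against 14.2% of all symbols. It averaged 4.46 ± 1.0 against 15.4 ± 4.6 FPKM (-1.57, SE 0.30, adjusted p = 0.00268, limma). *Mpo* averaged 172 ± 207 against 187 ± 7.47 (-1.20, interval -3.44 to 1.04), with Hoxa-del 1 above and Hoxa-del 2 and 3 below every WT-Cre library. Without Hoxa-del 1 its change was -2.36 (adjusted p = 0.0725, limma), and *Nkg7* then passed as lower (-1.0, adjusted p = 0.00304, limma). *Srgn* and *Prss57* were lower without overlap (20.7% of all symbols were) and *Ms4a3* was higher without overlap (20.7% as well), at 230 to 293 against 198 to 203. Strain, leukemia and genotype differ together between the WT and the floxed cells and cannot be told apart.

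Ratios inside a library do not depend on how libraries were scaled. *Prtn3* to *Elane* was 0.631, 0.633 and 0.619 in WT-GFP and 0.636, 0.669 and 0.684 in WT-Cre. In the floxed cells it was 1.25, 1.27 and 1.1 with the control virus and 0.741, 1.08 and 1.2 with Cre. All 6 floxed libraries lay above all 6 WT libraries, and Hoxa-del 1 was the 1 floxed library with more *Elane* than *Prtn3*. For Hoxa-flox against WT-GFP the exact two-sided permutation test gave p = 0.1, the smallest that 3 against 3 allows.

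*Elane* to *Mpo* was 7.73 to 7.99 in WT-GFP and 8.84 to 9.66 in WT-Cre. In the floxed cells it was 292, 347 and 30.3 with the control virus and 3.91, 135 and 8.56 with Cre. The ratio of Hoxa-del 1 lay below that of every WT library. *Ctsg* to *Mpo* ran from 2.57 to 2.87 in WT-GFP and from 3.38 to 3.49 in WT-Cre, with 126, 143 and 31.0 in Hoxa-flox and 1.48, 59.3 and 7.83 in Hoxa-del. For the WT cells all 3 ratios differed without overlap with Cre (exact permutation test, two-sided p = 0.1 each, the smallest possible), and for the floxed cells they overlapped (p = 0.2 each). An exact permutation test of 3 against 3 libraries cannot give less than 0.1, so none of the 12 comparisons made this way (3 ratios, 4 pairs of groups) could pass; no other test was run on the ratios.

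**Figure D3:**
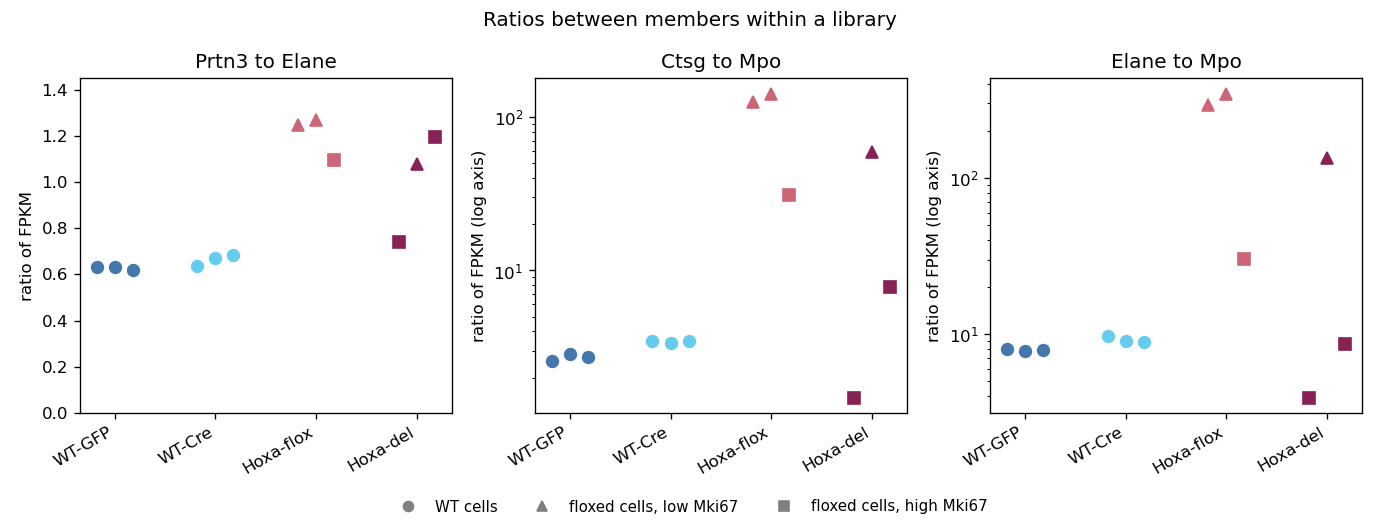
Ratio of the FPKM of 2 genes within each library (points), by group; the first axis is linear from 0 and the others are log axes. Prtn3 to Elane is at most 0.684 in WT libraries and at least 0.741 in floxed ones; the ratios to Mpo run from 1.48 to 347 over all libraries.

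The genes whose profile over the 12 libraries was nearest to that of *Mpo* (smallest root mean square difference of centred log2 values, members left out) were *Gm11505*, *Rgs18* and *Dusp6*, at 1.0, 1.19 and 1.28. *Gm11505* lies inside *Mpo* on the opposite strand (chromosome 11, 87795784 to 87801144). It read 12.2, 9.8 and 11 FPKM in WT-GFP, 7.05, 5.48 and 6.41 in WT-Cre, 0.412, 0 (as listed) and 0.867 in Hoxa-flox and 9.71, 0.320 and 3.04 in Hoxa-del. Its order of the groups and its highest floxed library, Hoxa-del 1, were those of *Mpo*, and without the strand setting reads of the pair cannot be told apart. *Rgs18*, a regulator of G protein signaling, was also low in the low-*Mki67* set (1.71, 1.74 and 4.72) and at 16.4 to 19.3 in the other set, but did not read lower with Cre in WT cells (19.7 to 25.1 against 25.7 to 28.0). *Dusp6*, a phosphatase of ERK kinases, read 42.7 to 44.3 in WT-GFP, 42.8 to 45.5 in WT-Cre and 1.8 to 13 in Hoxa-flox. The nearest to *Elane* were *S100a11*, *Agtrap* and *Rnaset2a*, at 0.16, 0.17 and 0.17. *S100a11*, a calcium-binding protein, read 320 to 409 in WT-GFP, 257 to 316 in WT-Cre, 168 to 265 in Hoxa-flox and 123 to 263 in Hoxa-del.

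**Figure D4:**
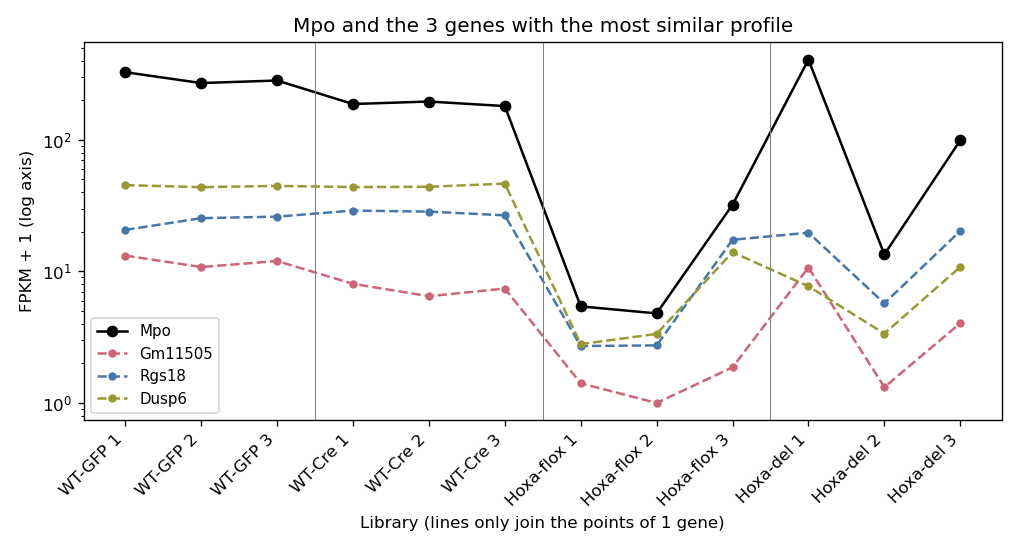
FPKM + 1 (log axis) of Mpo and the 3 genes with the nearest profile in the 12 libraries; lines join the points of 1 gene only. All 4 are lowest in Hoxa-flox 1 or Hoxa-flox 2, and Mpo and Gm11505 are highest among the floxed libraries in Hoxa-del 1.

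Other genes of the pathway were taken from lists by function. Of 12 tested transcription factors of the granulocyte and monocyte program, 0 passed with Cre in either genotype. In WT cells all 12 differences lay below 0 (57.2% over all symbols; median -0.22), and 9 were lower without overlap (16.3% over all symbols). *Cebpb*, a C/EBP factor, read 260 to 326 FPKM with the control virus and 224 to 252 with Cre, whereas *Myb* read 463 to 476 and 462 to 474. In Hoxa-flox against WT-GFP 3 of the 12 were called lower and 1 higher, where over all symbols 13.5% were called lower and 13.3% higher. *Myb* was lower at 184 to 222 (log2 change -1.18, adjusted p = 0.000282, limma) and *Klf4*, a monocyte factor, at 0.167 to 0.749 against 4.17 to 6.98 (-2.13, adjusted p = 0.000122). *Gata2*, a factor of early progenitors and mast cells, was the higher one, at 7.64 to 13.7 against 0.0996 to 0.128 (3.21, adjusted p = 1.39e-06). *Irf8* had no row.

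Of 11 genes that activate, inhibit or sort granule proteases, 0 passed with Cre in either genotype. In Hoxa-flox against WT-GFP 1 was called higher (13.3% of all symbols were) and 3 lower (13.5% of all symbols). The higher one was *Slpi*, an inhibitor of elastase and cathepsin G, at 522 to 1893 FPKM against 73.5 to 78.8 (4.0, adjusted p = 0.000456, limma). *Lyst*, which is needed for normal granule size, was lower at 5.39 to 6.91 against 48.1 to 57.9 (-2.89, adjusted p = 7.80e-06, limma). *Cst3*, cystatin C, read 212 to 403 and 260 to 293 and did not pass.

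Of 8 tested genes for other granule and lysosome contents 0 passed with Cre in either genotype. In Hoxa-flox against WT-GFP 4 were called lower, against 13.5% of all symbols. *Lyz2*, lysozyme, fell from 1896 to 1968 FPKM in the WT-GFP libraries to between 51.8 and 183 in Hoxa-flox (-3.99, adjusted p = 0.000177, limma), and the receptor gene *Clec12a* from between 36.5 and 45.1 to between 1.55 and 6.79 (-3.02, adjusted p = 0.000293, limma). *Ctsd* had no row. The 8 genes of heme synthesis, which supplies the cofactor of myeloperoxidase, held 0 calls in either comparison with Cre and 0 in Hoxa-flox against WT-GFP. Over all symbols 0.0152% were called with Cre in WT cells and 0.0304% in floxed cells. In Hoxa-flox against WT-GFP 13.5% were called lower and 13.3% higher. Of the 8, 7 lay below 0 with Cre in WT cells (57.2% of all symbols), with a median of -0.20. Among them 5 were lower without overlap (16.3% of all symbols). *Alas1*, the first enzyme of the path, read 281 to 318 in WT-GFP, 255 to 277 in WT-Cre, 83.1 to 248 in Hoxa-flox and 100.6 to 306 in Hoxa-del. *Urod*, a later enzyme, read 20.1 to 21.3, 14.1 to 16.7, 18.5 to 27.2 and 17.0 to 22.0.

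Later granules are filled at a later stage of the same path. Of 14 tested genes listed for this later stage, not all of them granule contents, 10 were called lower and 0 higher in Hoxa-flox. Over all symbols 13.5% were called lower and 13.3% higher. The median change of the 14 was -3.19, beside -0.37 for the primary granule genes and 0 for all symbols. *Chil3*, a secreted chitinase-like protein, read 852 to 919 in WT-GFP and 9.47 to 52.2 in Hoxa-flox (-4.84, adjusted p = 0.000352, limma), and *S100a8*, a calprotectin subunit, 2037 to 2303 and 70.6 to 672 (-2.82, adjusted p = 0.0328, limma). With Cre in WT cells 0 of 14 passed and the median was -0.12.

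Markers of other cells and states moved as follows. Of 12 monocyte and macrophage genes 7 were called lower and 1 higher in Hoxa-flox than in WT-GFP, and the list did not go one way. Over all symbols 13.5% were called lower and 13.3% higher. *C1qb*, a complement subunit, read 41.3 to 51.9 FPKM in WT-GFP and 0 to 0.148 in Hoxa-flox. The gene called higher was the chemokine receptor *Ccr2*, at 30.8 to 53.6 against 18.4 to 23.2 (0.97, adjusted p = 0.00773, limma). *Ly6c2*, a monocyte surface protein, read 1830, 1706 and 342 in Hoxa-flox against 364 to 453, and *Adgre1*, the macrophage marker F4/80, 97.1, 99.4 and 42.9 against 41.1 to 42.2; neither passed. *Ccr2* and *Adgre1* were named after their values were seen. The summed level of the list was 826 to 954 in WT-GFP. It was 2138, 2026 and 447 in the Hoxa-flox libraries and 691, 1984 and 288 with Cre, with the low values in the high-*Mki67* libraries. With Cre in WT cells 0 passed (median 0.13; summed level 833 to 874 FPKM in WT-Cre). Of 9 stem and progenitor genes with a row, 4 averaged at least 1 FPKM and were tested. All 4 were called higher in Hoxa-flox (13.3% of all symbols were), such as *Cd34* at 64.8 to 75.9 against 1.93 to 2.16. The untested ones did not go one way. *Flt3* and *Slamf1* averaged higher in Hoxa-flox than in WT-GFP, and *Procr* and *Mecom* lower. *Hlf* averaged 0.372 against 0.354 FPKM. The 8 proliferation genes summed to 326 to 336 in WT-GFP, 279 to 287 in WT-Cre, 175 to 581 in Hoxa-flox and 210 to 525 in Hoxa-del; in WT cells all 8 were below 0 (median -0.26) and 0 passed. The part of any of these in the levels of the primary granule genes was not tested.

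For *Nkg7*, *Cst7* and *Srgn*, which other cells also express, T and natural killer cell genes are given as a check. Of 8 with a row, 1 had a mean of at least 1 FPKM: *Klrb1c*, a natural killer cell gene, at 7.65 to 107. *Cd3d*, a defining T cell gene, read at most 0.374. *Ncr1*, *Gzma*, *Gzmb* and *Il2rb* had no row, so the check does not cover them. B cell genes summed to at most 3.35 FPKM and mast cell and basophil genes to at most 6.59 in any library. The B cell gene *Ms4a1* and the mast cell genes *Tpsb2*, *Tpsab1* and *Cma1* had no row and are not in these sums.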

How the data were processed

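Total RNA was sequenced from stranded, ribosomal RNA depleted libraries, per the labels' protocols. Per the submitters' processing notes the tools were STAR, Cufflinks and Cuffdiff (2.2.2.20150701), and 2 names of a build occur, mm10 and GRCm38. The values deposited by the authors were taken as FPKM made with Cufflinks, per the submitters' processing notes; the table itself does not write its unit. Annotation, scaling and use of strand: not given in the sources used here. Of 28042 rows, 1 per symbol (highest mean) was kept; 0 columns lacked a sample and 0 pairs of libraries were identical.

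FPKM are not counts, so limma 3.58.1 (R 4.3.3, trend) was fitted to log2(FPKM + 1) of the 13169 symbols that averaged 1 FPKM or more over 12 libraries, with 4 group means and 5 contrasts and Benjamini-Hochberg adjustment over all symbols. Depth was estimated from the steps of low values and the lengths of 43 genes with 1 transcript (reference library WT-GFP 1, 12.7 M fragments, interquartile range 12.4 to 12.8 M). On data simulated for WT-Cre against WT-GFP (13169 genes), 55% of 100 genes lowered by 1 and 95% of 100 lowered by 2 were called. Summaries, exact permutation tests, promoters and figures used Python 3.11.15, pandas 2.3.3, numpy 2.4.6, scipy 1.17.1 and matplotlib 3.10.9.

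Genes named beside the 10 were, in each list, those called with Cre, the 2 highest and the 2 called genes with the largest change in Hoxa-flox against WT-GFP; not all are reported here. The genes, lists and contrasts were chosen with earlier results of these data known. The 2 library sets were read from the first principal component of the 6 floxed libraries (64.4% of variance) with the 10 genes left out; this alternative was chosen after seeing the data. The other alternatives are given in the closing section.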

Additional observations from a re-analysis of the deposited data

How the results depend on the processing

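With Cre in WT cells all 10 genes stayed below 0 in each of 14 alternatives (140 of 140 results) and 0 were called in any. Direction was kept in 120 of 140 results with Cre in floxed cells, 183 of 190 for the difference of the changes, 120 of 130 for Hoxa-flox against WT-GFP and 124 of 130 for Hoxa-del against WT-Cre; the cause of the changes was not tested. The spread within groups (median SD of log2 values 0.116 and 0.124 in the WT groups, 0.29 and 0.357 in the floxed groups) limits the comparisons in floxed cells, and depth limits *Nkg7*. The fit of only 2 groups was not run for the difference of the changes, which needs all 4.

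Array weights gave 3 called genes of the 10 with Cre in floxed cells (main 0), 4 for the difference (0), 8 for Hoxa-flox against WT-GFP (4) and 2 for Hoxa-del against WT-Cre (1). Over all symbols they gave 18 with Cre in WT cells (main 2), 5173 in floxed cells (4), 3452 for the difference (1) and 9186 for Hoxa-flox against WT-GFP (3525). Without the filter these counts were 5, 7 and 4 for the first 3. Fits of only 2 groups gave 5 with Cre in WT cells and 1 in floxed cells. The count over all symbols for Hoxa-del against WT-Cre with array weights is not reported here (main 3580).

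Signs changed with array weights for *Elane* (-0.16) and *Srgn* (0.11) with Cre in floxed cells, for *Prtn3* (-0.25), *Cst7* (-0.12) and *Plac8* (-0.14) in the difference, for *Prtn3* (0.25) in Hoxa-flox against WT-GFP, and for *Prtn3* (-0.0023) and *Cst7* (-0.028) in Hoxa-del against WT-Cre. Upper-quartile rescaling changed those of *Srgn* (0.0611) and *Plac8* (0.0178) with Cre in floxed cells and of *Cst7* (-0.0044) in Hoxa-flox against WT-GFP. The library set as a term, chosen after seeing the data, changed those of *Prtn3* (0.11), *Ctsg* (-0.0365), *Cst7* (0.0459) and *Plac8* (0.0912) with Cre in floxed cells.

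Leaving out 1 library at a time, the called genes of the 10 ranged from 0 to 1 with Cre in floxed cells, 2 to 6 for Hoxa-flox against WT-GFP and 1 to 2 for Hoxa-del against WT-Cre. Over all symbols they ranged from 0 to 7 with Cre in WT cells, 2 to 787 in floxed cells and 1 to 5 for the difference. For the comparisons between genotypes the ranges over all symbols are not reported here. The main fit gave 3525 for Hoxa-flox against WT-GFP and 3580 for Hoxa-del against WT-Cre. Changes crossed 0 with Cre in floxed cells for *Elane* (-0.0185 to 0.48), *Prtn3* (-0.37 to 0.0558), *Ctsg* (-0.0653 to 0.35), *Cst7* (-0.31 to 0.13), *Srgn* (-0.11 to 0.0737), *Prss57* (-0.12 to 0.51), *Nkg7* (-0.25 to 0.58) and *Plac8* (-0.23 to 0.0718). In the difference they did so for *Prtn3* (-0.0322 to 0.39), *Cst7* (-0.11 to 0.33) and *Plac8* (-0.0215 to 0.28). In Hoxa-flox against WT-GFP they did for *Prtn3* (-0.16 to 0.19), *Ms4a3* (-0.62 to 0.0518) and *Cst7* (-0.0349 to 0.0744), and in Hoxa-del against WT-Cre for *Mpo* (-2.36 to 0.10), *Prtn3* (-0.0632 to 0.36), *Cst7* (-0.10 to 0.34) and *Plac8* (-0.21 to 0.0909).

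With the replicate block the called genes of the 10 were 0 with Cre in either genotype and in the difference. They were 4 in Hoxa-flox against WT-GFP and 1 in Hoxa-del against WT-Cre. All of these were as without the block. Over all symbols the block gave 0 with Cre in WT cells (main 2). Its other counts over all symbols are not reported here. After each group's mean was subtracted, same-numbered libraries correlated at 0.01, -0.01 and 0.09 in WT and -0.3, 0.6 and 0.72 in floxed cells. In floxed cells these correlations followed the *Mki67* sets. Whatever their numbers, Hoxa-flox and Hoxa-del libraries correlated at 0.32 to 0.72 inside a set and at -0.72 to -0.23 across the sets. Whether same-numbered libraries are paired cannot be told from these values.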
